A study of Oryza sativa with 12 samples.

Results

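The *LONELY GUY* (*LOG*) genes encode enzymes that release the active free base of cytokinin from its inactive nucleotide, the last step in the synthesis of this hormone. The 6 genes described here are *LOG* and the LOG-like genes *LOGL1*, *LOGL3*, *LOGL6*, *LOGL7* and *LOGL10*. They were found by symbol or synonym in the annotation of the array, among 10 *LOG* genes of the reference gene table and among 15140 genes with a row of their own in the 54922 rows of the table; the other *LOG* genes were not analysed here. Each of the 6 genes was measured by 1 row, so no choice between rows was needed, and none of these rows repeated the values of another row. The reference names are LOC4324445 (*LOG*) and LOC4327684 (*LOGL1*) on chromosome 1, LOC4331344 (*LOGL3*) on chromosome 3, LOC4336417 (*LOGL6*) on chromosome 4, LOC4339472 (*LOGL7*) on chromosome 5 and LOC4348914 (*LOGL10*) on chromosome 10.

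RNA came from rice shoot apices that held the shoot apical meristem (SAM) and leaf primordia, from seedlings of 5 days after germination (dag) in the Taichung 65 background. All seedlings, mock-treated ones included, carried *pACT1-GVG>OsWOX4:RNAi*, in which the promoter of rice *ACTIN1*, active in most tissues, drives GVG, a transcription factor that dexamethasone (DEX) activates and that then switches on an RNAi construct against the homeobox gene *OsWOX4*. The groups were DEX for 3 h, mock for 3 h, DEX for 12 h and mock for 12 h, with 10 µM DEX in the treated medium and 3 biological replicates per group, each on 1 array. No array of a plant without the construct treated with DEX was analysed here, so a response to DEX itself and a response to the silencing cannot be told apart. The RNA was of whole apices, where fewer cells of a type and less RNA per cell also cannot be told apart.

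Cytokinin is best known in the shoot apex for keeping the meristem dividing, and the rice mutant of *LOG* has a small, early-ending meristem. In *Arabidopsis*, *LOG3* and *LOG4* supply cytokinin to dividing procambial cells of young vascular bundles; they lie on a branch of the family that also holds rice *LOGL3* and *LOGL10*. Cytokinin is then perceived by membrane histidine kinases, and the signal passes through phosphotransfer proteins to the type-B response regulators, transcription factors that turn on cytokinin targets. Type-A response regulators are among the targets, and they dampen the pathway. CKX oxidases break cytokinin down.

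Signals below are on the linear scale, as 2 raised to the deposited log2 value, and fold changes are log2 differences of DEX minus mock unless another order is stated. A gene is said to rise or fall where limma gave an adjusted p under 0.05, after Benjamini-Hochberg adjustment over the 54922 rows. Since each row has its own probes, levels were not compared between genes, only their changes. Whether the probes of one *LOG* gene also read RNA of another was not tested.

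The row of *OsWOX4* itself was higher under DEX, not lower, with signals of 234 ± 35.2 in DEX-treated and 133 ± 13.9 in mock-treated apices at 3 h, and of 395 ± 34.5 in DEX-treated and 136 ± 12.2 in mock-treated apices at 12 h (SD, n = 3 each). In limma this was a log2 difference of 0.81 ± 0.13 (SE) with an adjusted p of 0.0372 at 3 h, and of 1.54 ± 0.13 with an adjusted p of 3.27e-06 at 12 h. The call at 3 h held in only 1 of 12 fits that each left out 1 array (adjusted p = 0.0292 to 0.173). Whether this row also reads the RNAi transcript was not tested, so it gives no check of the silencing. The study examined *OsWOX4* mRNA separately, by RT-PCR after 12 h with or without DEX, and those data were not used here. The median signal of the arrays was 5.64 to 5.66 on the log2 scale in the DEX group of 12 h and 5.72 to 5.76 in the other groups, and replicate arrays correlated at r = 0.982 to 0.990 over 12 pairs.

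After 12 h, 4 of the 6 *LOG* genes had changed, 2 downward and 2 upward, in a comparison where 43.0% of all rows passed the same test (14.9% higher and 28.0% lower). By a rule that asked for a fold of 2 or more and an unadjusted limma p under 0.01, 1 gene was higher and 2 were lower, where 5.17% of all rows were higher and 9.76% lower. The DEX and mock arrays were apart, with no overlap, in the same 4 genes and in 52.5% of all rows. *LOGL3* and *LOGL10* fell to well under their mock level, *LOGL7* rose 2.27-fold, and *LOG* rose by less. The median log2 fold change of the 6 genes was -0.25, beside -0.06 over all rows.

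*LOGL3* had signals of 59.0, 42.8 and 41.2 in the DEX-treated apices of 12 h, against 248, 224 and 213 in the mock-treated ones. All DEX arrays lay far below all mock arrays. The change was -2.28 ± 0.14 (SE) on the log2 scale with an adjusted p of 2.19e-07, a 4.84-fold lower signal, and only 0.446% of all rows had a lower log2 fold change. At 3 h the gene had signals of 184, 198 and 167 in DEX-treated and 173, 195 and 178 in mock-treated apices, which overlapped, with a log2 fold change of 0.01 (95% confidence interval -0.30 to 0.31). The level at 12 h of DEX was thus the lowest of the 4 groups, and the test did not separate the 3 others from their neighbors in order of level (adjusted p = 1.0 for DEX against mock at 3 h and 0.385 for DEX at 3 h against mock at 12 h).

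*LOGL10*, on the same branch of the family, had signals of 24.8, 28.7 and 26.6 in the DEX-treated apices of 12 h, against 87.0, 87.2 and 96.5 in the mock-treated ones. The groups were again apart. Its change was -1.76 ± 0.11 (SE) on the log2 scale with an adjusted p of 3.43e-07, a 3.39-fold lower signal, with 1.66% of all rows lower. At 3 h the signals were 91.2, 121 and 100.0 in DEX-treated and 98.1, 104 and 97.7 in mock-treated apices, so the mock arrays lay within the range of the DEX arrays, and the log2 fold change was 0.05 (95% confidence interval -0.20 to 0.30). In order of level DEX at 12 h was lowest, and the next step up, mock at 12 h against mock at 3 h, was not separated by the test (-0.15, adjusted p = 0.687).

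The fall of *LOGL3* was larger than that of *LOGL10* by 0.52 on the log2 scale, but an exact two-sided permutation test of this difference over the arrays gave p = 0.2, where the smallest p that 3 against 3 arrays allow is 0.1. Between DEX at 3 h and DEX at 12 h both genes fell by 1.96 on the log2 scale (adjusted p = 6.62e-07 for *LOGL3* and 1.77e-07 for *LOGL10*).

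**Figure D1:**
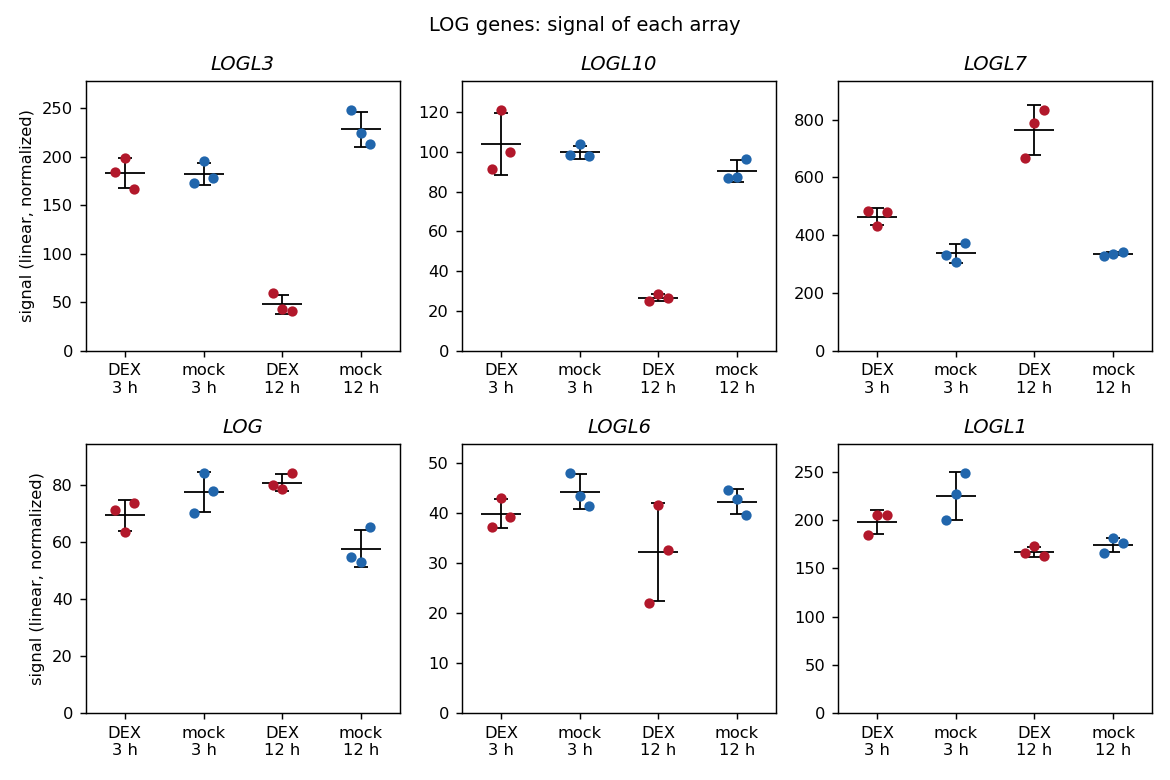
Signal of the 6 *LOG* genes (linear scale, each panel with its own axis from 0) in each array, with DEX in red and mock in blue at 3 h and 12 h; bars give the mean and SD of 3 arrays. The DEX arrays of 12 h lie apart below mock for *LOGL3* and *LOGL10* and apart above mock for *LOGL7* and *LOG*, and *LOGL6* spreads from 22.1 to 41.6 in that group.

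*LOGL7* moved the other way. Its signals were 667, 789.8 and 834 in the DEX-treated apices of 12 h, against 329, 336 and 341 in the mock-treated ones, with the groups apart. The change was 1.18 ± 0.11 (SE) on the log2 scale with an adjusted p of 5.47e-06, a 2.27-fold higher signal, with 4.23% of all rows higher. This was also the only *LOG* gene whose DEX and mock arrays were apart at 3 h, with DEX higher, as in 5.21% of all rows. The signals at 3 h were 483, 430.3 and 479 in DEX-treated and 332, 306 and 372 in mock-treated apices. The log2 fold change of 0.47 (SE 0.11) had an unadjusted p of 0.00141 and an adjusted p of 0.244 and did not pass the test. Between DEX at 3 h and DEX at 12 h the gene rose by 0.71 on the log2 scale (adjusted p = 0.000247), and in mock medium the difference between the times was 0.00 (95% confidence interval -0.24 to 0.24).

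*LOG*, the founding gene of the family, had signals of 80.0, 78.7 and 84.3 in the DEX-treated apices of 12 h, against 54.9, 53.3 and 65.3 in the mock-treated ones. The groups were apart, and the change was 0.49 ± 0.11 (SE) on the log2 scale with an adjusted p of 0.00369, a 1.41-fold higher signal. At 3 h the signals overlapped, with 71.5, 63.5 and 73.9 in DEX-treated and 70.5, 84.5 and 78.0 in mock-treated apices, and a change of -0.16 ± 0.11 (SE) on the log2 scale (adjusted p = 0.987). The level under DEX at 12 h lay close to that of mock at 3 h, with a log2 difference of 0.06 (adjusted p = 0.664), whereas mock at 12 h was the lowest of the 4 groups. The difference with time in mock medium, -0.43 on the log2 scale, had an unadjusted p of 0.00264 and an adjusted p of 0.277, and the change with time under DEX, 0.22, did not pass either (adjusted p = 0.123). The rise of *LOG* against mock at 12 h was smaller than that of *LOGL7* by 0.69 on the log2 scale (exact two-sided permutation p = 0.1, the smallest possible).

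*LOGL6* and *LOGL1* did not pass the test at either time, and no neighbors in the order of their 4 group levels were separated (adjusted p = 0.135 to 0.929 for *LOGL6* and 0.506 to 0.921 for *LOGL1*). The lowest level, DEX at 12 h, was separated from the highest, mock at 3 h, in both genes. This log2 difference was -0.51 for *LOGL6* (adjusted p = 0.0402) and -0.42 for *LOGL1* (adjusted p = 0.00449), and it mixes treatment and time. The pair was picked after the levels were sorted, and the limma p was not adjusted for that choice. Arrays of the pair overlapped for *LOGL6* and not for *LOGL1*. The share of all rows that passed for this pair is not given here, so these calls say little about the 2 genes. *LOGL6* had signals of 22.1, 41.6 and 32.5 in the DEX-treated apices of 12 h, against 44.5, 42.8 and 39.5 in the mock-treated ones. The DEX arrays spread widely, and 1 of them lay within the mock range. The change was -0.44 ± 0.19 (SE) on the log2 scale, with an adjusted p of 0.0759. Without DEX replicate 2 of 12 h it was -0.65 and passed (adjusted p = 0.00757), and without DEX replicate 1 it was -0.20, so single arrays decided this value. At 3 h it had 37.2, 42.9 and 39.1 in DEX-treated and 48.0, 43.4 and 41.3 in mock-treated apices, again with overlap, and a change of -0.15 ± 0.19 (SE) on the log2 scale (adjusted p = 1.0). *LOGL1* had signals of 166, 173 and 163 in the DEX-treated apices of 12 h, against 166, 181 and 176 in the mock-treated ones, a log2 fold change of -0.06 (95% confidence interval -0.28 to 0.16, adjusted p = 0.688). The interval excludes a change in either direction as large as that of *LOG*. At 3 h the signals of *LOGL1* were 184, 205 and 205 in DEX-treated and 199.6, 227 and 249 in mock-treated apices, which overlapped, and the change was -0.18 ± 0.10 (SE) on the log2 scale (adjusted p = 0.921).

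At 3 h none of the 6 genes passed the test in limma, in a comparison where 0.244% of all rows did. At an unadjusted p under 0.05 there was 1, *LOGL7*, and the unmoderated linear model called 0 and had the same number at an unadjusted p under 0.05. How many of all rows had such an unadjusted p was not counted. The median log2 fold change of these 6 genes was -0.07 at 3 h, beside -0.01 over all rows.

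**Figure D2:**
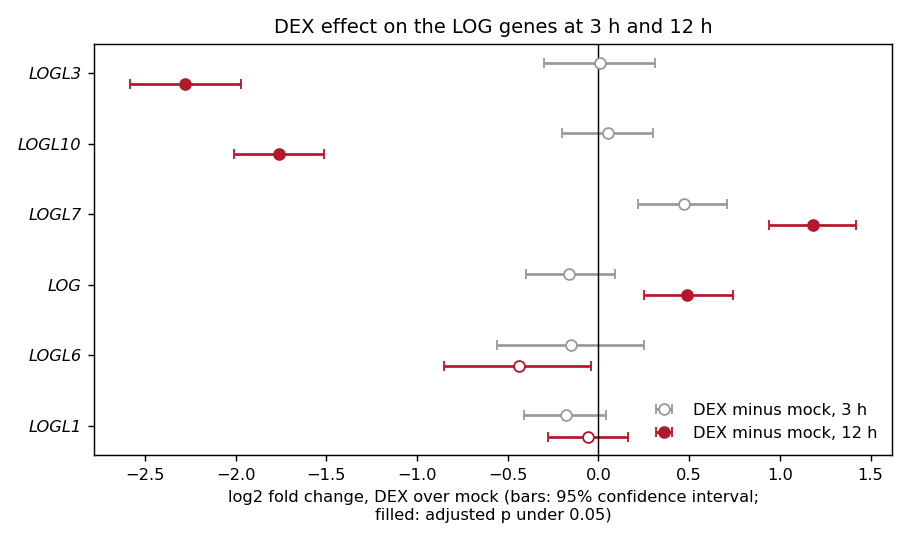
Log2 fold change of DEX over mock for the 6 *LOG* genes at 3 h (gray) and 12 h (red), with 95% confidence intervals; filled circles mark an adjusted p under 0.05. At 3 h the values lie between -0.18 and 0.47 and none is filled; at 12 h they spread between -2.28 and 1.18.

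The DEX effect at 12 h differed from that at 3 h for the same 4 genes, by a test of the difference itself, which 29.9% of all rows passed (10.4% upward and 19.5% downward). The difference of the log2 fold changes was -2.28 (SE 0.20, adjusted p = 1.01e-05) for *LOGL3*, -1.81 (SE 0.16, adjusted p = 1.32e-05) for *LOGL10*, 0.71 (SE 0.16, adjusted p = 0.00504) for *LOGL7* and 0.65 (SE 0.16, adjusted p = 0.00894) for *LOG*. For *LOGL6* it was -0.29 (adjusted p = 0.449) and for *LOGL1* 0.13 (adjusted p = 0.554). With time in mock medium alone, 0 of the 6 genes passed in limma and 0.00% of all rows did. At an unadjusted p under 0.05 there were 3, *LOG* and *LOGL1* lower and *LOGL3* higher at 12 h. The unmoderated model also called 0 and had 3 at that limit. Since the share of all rows at the unadjusted limit was not counted, these 3 are not read as a change with time. *LOGL1* had a log2 difference of -0.37 (unadjusted p = 0.00388, adjusted p = 0.292) between the mock groups and *LOGL3* one of 0.33 (unadjusted p = 0.0389, adjusted p = 0.46). With time in DEX medium, 3 of the 6 genes passed, *LOGL3* and *LOGL10* downward and *LOGL7* upward, where 49.3% of all rows did (18.8% upward and 30.6% downward).

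Of the other cytokinin genes, 19 in the lists of the pathway had a row. At 12 h, 2 of them rose, 9 fell and 8 did not pass, where 14.9% of all rows rose and 28.0% fell, with a median log2 fold change of -0.30 beside -0.06 over all rows. At 3 h none passed in limma or in the unmoderated model. In limma 5 were lower at an unadjusted p under 0.05, and 5 genes had such a p in the unmoderated model. The share of all rows under this unadjusted limit was not counted, so these numbers are not read as a result. No gene was found under the names searched for the IPT enzymes that make the cytokinin precursors, the CYP735A hydroxylases that make *trans*-zeatin types, the zeatin glucosyltransferases or the PUP and ENT carriers, and these were not analysed here.

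Among the type-A response regulators, 3 of 5 fell at 12 h. *RR2* had signals of 97.3 ± 9.85 in DEX-treated and 259 ± 3.06 in mock-treated apices, or -1.42 ± 0.10 (SE) on the log2 scale with an adjusted p of 5.37e-07. *RR1* fell by 1.34 on the log2 scale (SE 0.13, adjusted p = 8.77e-06) and *RR4*, named after its values were seen, by 1.09 (SE 0.13, adjusted p = 3.2e-05). *RR5* and *RR9* did not pass, with log2 fold changes of -0.44 and 0.11. At 3 h, when *LOGL3* and *LOGL10* stood at 0.01 and 0.05, *RR4* had a log2 fold change of -0.70 (unadjusted p = 0.000178, adjusted p = 0.0656), *RR2* one of -0.44 (unadjusted p = 0.000918, adjusted p = 0.183) and *RR1* one of -0.41 (unadjusted p = 0.011, adjusted p = 0.563). In each of these 3 genes all DEX arrays lay below all mock arrays at 3 h, as in 5.49% of all rows, but none passed the test there. The arrays of *RR5* and *RR9* overlapped at 3 h, with log2 fold changes of 0.10 and -0.31. For *RR4* the DEX effect at 12 h was not separated from that at 3 h in limma (difference -0.39, adjusted p = 0.133).

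The other lists were mixed. Of the type-B response regulators, 1 of 5 rose at 12 h, *RR21* (0.37, SE 0.09, adjusted p = 0.00454), and 2 fell, *RR22* (-0.98, SE 0.17, adjusted p = 0.000489) and *RR23* (-0.55, SE 0.11, adjusted p = 0.00135), while *RR24* and *RR33* did not pass. The reference table also gives *RR33* a type-A name (*OsRRA19*), so the list it belongs to is not settled. In the list of phosphotransfer proteins, which was drawn up by name, *PHP2* fell (-0.94, SE 0.14, adjusted p = 0.000182), *HP1* rose by little (0.32, SE 0.12, adjusted p = 0.0484) and *PHP1* stood at 0.02. Whether *PHP1* and *PHP2* pass the signal on was not tested. The call of *HP1* held in only 2 of 12 fits that each left out 1 array. Of the histidine kinases, 2 of 3 fell, *HK1* (-0.93, SE 0.18, adjusted p = 0.00123), which is also listed as *MHZ1*, an ethylene signaling gene rather than a cytokinin receptor, and *HK5* (-0.30, SE 0.10, adjusted p = 0.0245). The call of *HK5* was lost in 5 of 12 fits without 1 array. Of the CKX oxidases with a row, *CKX4* fell (-0.60, SE 0.15, adjusted p = 0.0058). The others did not pass, with log2 fold changes of 0.34 for *CKX1* and -0.24 for *CKX2*. *CKX2* had 2 rows, and the one with the higher mean over the 12 arrays was taken. Each of these cytokinin lists also held genes without a row in the reference gene table.

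**Figure D3:**
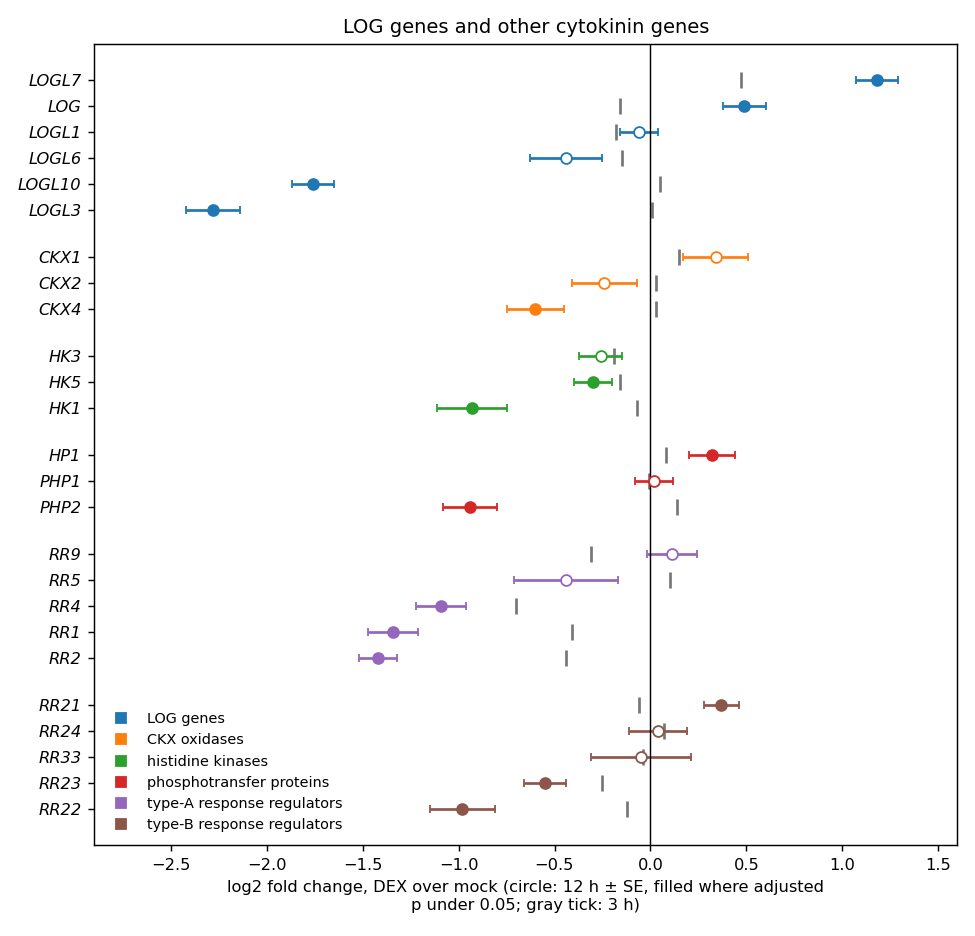
Log2 fold change of DEX over mock at 12 h (circles with SE, filled where the adjusted p is under 0.05) and at 3 h (gray ticks) for the *LOG* genes and the 19 other cytokinin genes with a row, by list. *LOGL3* and *LOGL10* have the lowest values at 12 h and *LOGL7* the highest, and the gray ticks of *RR1*, *RR2* and *RR4* lie between -0.70 and -0.41.

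Likeness of pattern was measured as the root mean square difference over the 12 arrays between 2 genes, after each gene's log2 values were centered on their own mean, among 1675 named genes. The nearest genes to *LOGL3* were *OsSUS1*, a sucrose synthase (0.15), *BURP12*, a BURP domain gene (0.16), and *CYCD3-2*, a D-type cyclin of the cell cycle (0.18). Nearest to *LOGL10* were *RRF* (0.14), *OsRad54*, a DNA repair helicase (0.15), and *OsRBR1*, a retinoblastoma-related regulator of cell cycle entry (0.17). *LOGL10* ranked 32 for *LOGL3* and *LOGL3* ranked 76 for *LOGL10*, at a difference of 0.29, so each had many closer genes than the other.

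Nearest to *LOGL7* were *CCAMK*, a calcium- and calmodulin-dependent kinase of root symbiosis (0.11), *YAB5*, a YABBY transcription factor (0.12), and *ADIPOR3* (0.15). For *LOG* they were *HAP2A*, a CCAAT-box binding subunit (0.14), *OsC3H40* (0.15) and *IAA31*, of the auxin response repressor family (0.15). For *LOGL6* they were *LTD* (0.13), *OsPOLLUX*, an ion channel (0.15), and *APO2* (0.16), and for *LOGL1* *Os-RelA1* (0.13), the Polycomb gene *fie* (0.13) and *NifU1* (0.14). The SD of the gene's own log2 values over the 12 arrays was 0.95 for *LOGL3*, 0.86 for *LOGL10* and 0.51 for *LOGL7*, but only 0.22 for *LOG*, 0.29 for *LOGL6* and 0.19 for *LOGL1*, so a small difference says less for these 3 genes.

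**Figure D4:**
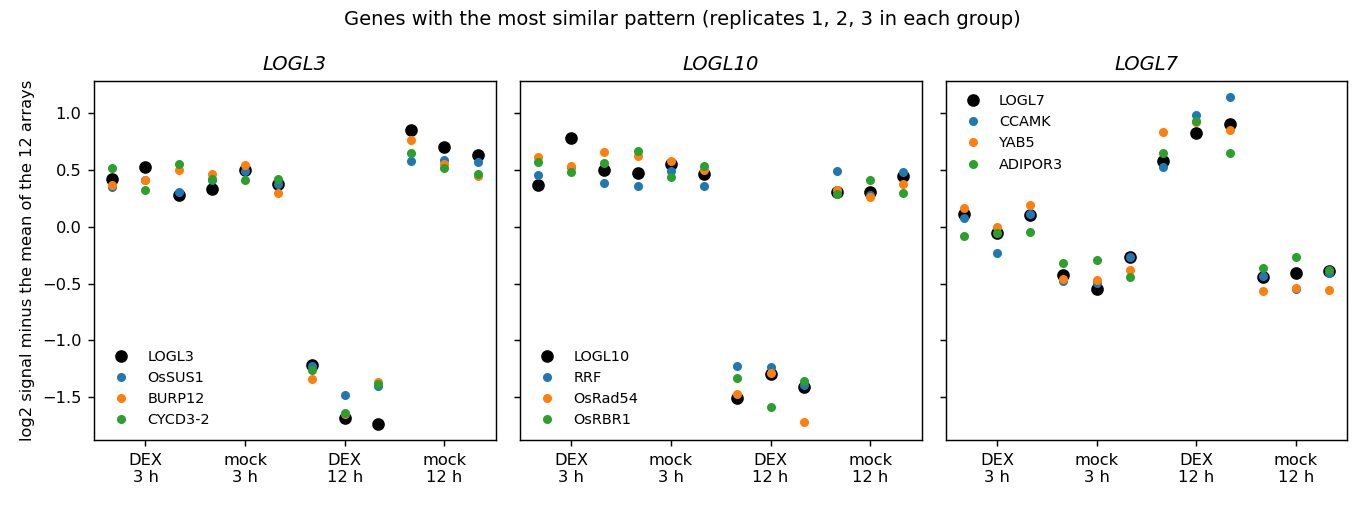
Log2 signal minus the mean of the 12 arrays for *LOGL3*, *LOGL10* and *LOGL7* (black) and the 3 named genes nearest to each, with a point for each replicate of each group. In the first 2 panels the DEX arrays of 12 h stand apart below the other groups, and in the third panel the DEX arrays stand higher than mock at 12 h.

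In the order of genes of assembly ASM3414082v1, the protein-coding gene next to *LOGL3* was *HOX10*, and *Hox9* lay 5 genes from *LOGL10*; both are HD-ZIP III genes, which guide vascular and leaf patterning, and this was noticed after the values were seen. *HOX10* had signals of 427 ± 25.4 in DEX-treated and 763 ± 19.9 in mock-treated apices at 12 h, or -0.84 ± 0.08 (SE) on the log2 scale with an adjusted p of 6.63e-06. *Hox9* had 196 ± 30.7 in DEX-treated and 549 ± 26.3 in mock-treated apices, or -1.50 ± 0.12 (SE) on the log2 scale with an adjusted p of 1.48e-06. Within 10 genes on each side of the 6 *LOG* genes, 66 neighbors had a row, of which 19 fell and 16 rose at 12 h, beside 28.0% and 14.9% of all rows. The neighbors were counted by 1 row per gene and the shares over all rows, so these are not on the same base. Of the other genes that the study set beside *LOGL3* and *LOGL10* in tissue sections, *DL*, a YABBY gene needed for the midrib, fell (-1.44, SE 0.13, adjusted p = 4.81e-06) and *OsPNH1*, an *ARGONAUTE* gene of early vascular cells, stood at 0.06 (adjusted p = 0.689) at 12 h. *PHB3* and *OsMP* were also examined in those sections, and no values under these names are given here.

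Markers of the tissues of the apex also changed at 12 h, when 28.0% of all rows fell and 14.9% rose. Of 10 vascular markers 7 had a row, and 5 of the 7 fell and 0 rose. Those that fell were *HOX10* and *Hox9*, described above, *HOX33*, *hox32* and *SHR1*. *HOX1* (-0.42, adjusted p = 0.179) and *OsPNH1* (0.06, adjusted p = 0.689) did not pass. The summed signal of the 7 markers was 1567 to 1987 in DEX-treated and 3056 to 3456 in mock-treated apices. At 3 h this sum was 2999 to 3102 in DEX-treated and 3108 to 3224 in mock-treated apices. The 3 SAM markers with a row, of 7, all fell, with sums of 224 to 237 in DEX-treated and 338 to 451 in mock-treated apices at 12 h. The leaf primordium markers with a row, 6 of 8, had sums of 2946 to 3208 in DEX-treated and 1834 to 1979 in mock-treated apices. Of these markers *YAB4* and *YAB5* were higher and 4 lower at 12 h, with a median log2 fold change of -0.95. *YAB5* (mean signal 1817 with DEX, 677 with mock) and *YAB4* (859 and 202) carried the higher sum, so it does not describe the list as a whole. At 3 h the sums of these 6 markers were already apart, with 2255 to 2372 in DEX-treated and 1863 to 1919.6 in mock-treated apices. Only *YAB5* had risen in limma (0.55, SE 0.09, adjusted p = 0.0246), and the median log2 fold change was 0.03. The 3 green leaf markers with a row had sums of 144 to 207 in DEX-treated and 2475 to 2571 in mock-treated apices at 12 h, and of 1787 to 1979 in DEX-treated and 2076 to 2297 in mock-treated apices at 3 h, when none of them passed the test. The 4 epidermal markers with a row summed to 1494 to 1587 in DEX-treated and 1311 to 1371 in mock-treated apices at 12 h, with 2 higher, 1 lower and a median log2 fold change of 0.05. *Roc4* carried the higher sum, with signals of 426 ± 31.7 in DEX-treated and 47.0 ± 1.5 in mock-treated apices at 12 h (SD, n = 3 each), whereas *Roc7* fell (-0.26, SE 0.08, adjusted p = 0.0214). *Roc4* had also risen at 3 h (0.95, SE 0.13, adjusted p = 0.0123). The 1 root marker with a row, *QHB*, which marks the quiescent center, read 196 to 308 in DEX-treated and 14.6 to 22.1 in mock-treated apices. The part of any of these shifts in the changes of the *LOG* genes was not tested.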

How the data were processed

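Total RNA of 12 samples in 4 groups was hybridized to Affymetrix rice gene arrays of 1 color, 3 arrays per group. Per the study's methods and the labels, Affymetrix Expression Console 1.3 was used by the authors to normalize the scanned intensities. The range of the deposited values is that of log2 signals, as which they were taken, and they were used without further scaling. A scale that pulls arrays together can hide a shift of all RNA. Arrays have no read depth, so the number of arrays limits the precision.

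Genes were named through the platform annotation and a reference gene table (assembly ASM3414082v1), which was used for names and the order of genes and not for coordinates. In R 4.3.3, limma 3.58.1 fitted 4 group means to each of 54922 rows, with empirical Bayes variances and no replicate block. Its two-sided p-values received a Benjamini-Hochberg adjustment across the whole table. Calls were made at an adjusted p under 0.05. The other rule, from the study's limits, asked for a fold of 2 or more together with a limma p, not adjusted, under 0.01. The fit was tested on simulated data. Differences between 2 genes were tested by exact permutation in SciPy 1.17.1. Other tables and figures were made with Python 3.11.15, NumPy 2.4.6, pandas 2.3.3 and matplotlib 3.10.9.

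The genes named are the 6 *LOG* genes, the 3 genes nearest in pattern to each *LOG* gene, and *OsWOX4*. Genes the study examined beside them are named where the annotation names them. From each of 9 cytokinin lists came the largest 2 rises and the largest 2 falls at 12 h among members that passed in limma. *CKX1*, *CKX2*, *HK3*, *PHP1*, *RR5*, *RR9*, *RR24* and *RR33* did not pass and were named beyond this rule. *RR4*, *HOX10*, *Hox9* and the markers *HOX1*, *HOX33*, *hox32*, *SHR1*, *YAB4*, *Roc4*, *Roc7* and *QHB* were named after their values were seen. The *LOG* genes and all lists were chosen with earlier results of these data known. The alternatives were median centering, quantile normalization, filters on dim rows, a variance trend, no moderation, 1 row per gene, a replicate block, only the 6 arrays of a time, the fold rule and leaving out each array in turn. No protein or promoter sequence was used here.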

Additional observations from a re-analysis of the deposited data

Results flagged for a closer look

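The results below were singled out because the DEX effect at 12 h differed from that at 3 h by a test of the difference itself in limma (adjusted p under 0.05), and 29.9% of all rows passed the same test. Among the *LOG* genes the difference of the log2 fold changes was -2.28 for *LOGL3*, -1.81 for *LOGL10*, 0.71 for *LOGL7* and 0.65 for *LOG*. Among the other cytokinin genes it was -0.98 for *RR2*, -0.93 for *RR1*, -1.08 for *PHP2*, -0.86 for *RR22*, -0.86 for *HK1*, -0.63 for *CKX4* and 0.43 for *RR21*. It was 0.73 for the row of *OsWOX4*, -1.49 for *DL*, -1.38 for *Hox9* and -0.73 for *HOX10*. Groups of 3 arrays were too small to look for single arrays far from the others.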

How the results depend on the processing

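The calls of *LOGL3*, *LOGL10*, *LOGL7* and *LOG* at 12 h kept their direction and their side of the threshold in every alternative that used the adjusted p, with log2 fold changes over the 12 fits without 1 array of -2.44 to -2.18, -1.81 to -1.71, 1.11 to 1.27 and 0.43 to 0.58. By the fold rule 1 *LOG* gene was higher at 12 h, since *LOG* changed less than the fold limit. Without 1 array, 2 to 3 *LOG* genes were lower at 12 h and 2 to 3 were lower in DEX at 12 h than in DEX at 3 h, in both cases with *LOGL6* as the third only without DEX replicate 2 of 12 h. *LOGL1* also passed as lower in DEX at 12 h than in DEX at 3 h under both filters on dim rows, with no moderation and with 1 row per gene (-0.24, adjusted p = 0.0328 to 0.049, beside 0.0695). *LOGL6* also passed at 12 h with 1 row per gene, where fewer rows were tested (adjusted p = 0.0479), and has no value under the filter at the median. In DEX at 12 h against DEX at 3 h, 2 genes were higher after median centering and 2 after quantile normalization, where *LOG* passed (0.30 and 0.37). Values near 0 changed sign: *LOGL1* at 12 h was 0.02 after centering and 0.13 after quantile normalization, *LOGL7* between the mock groups was 0.01 and 0.02 under these and -0.07 to 0.07 without 1 array, and at 3 h, without 1 array, *LOGL3* was -0.05 to 0.07 and *LOGL10* -0.06 to 0.14. Of the other cytokinin genes, 1 rose at 12 h with no moderation, 1 with the replicate block, 1 in the 6 arrays of that time and 1 to 2 without 1 array; *HP1* was lost. Without 1 array 8 to 9 of them fell, and 7 to 10 under the other settings, where *HK3* passed in 3 of 9 (lowest adjusted p = 0.0344). The call of *HK5* was also lost after centering, after quantile normalization and in the 6 arrays of that time, and the call of *OsWOX4* at 3 h with no moderation and in the 6 arrays of that time (adjusted p up to 0.324). Same-numbered arrays showed no strong shared deviation (r = -0.0534 to 0.17 over 18 pairs, 1 of them over 0.1). With 3 normalized arrays per group this cannot exclude that the numbers pair them. The replicate block changed no other call given here. The mean of several rows per gene was not run, since each *LOG* gene has 1 row.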
